A study of Mus musculus with 40 samples.

Results

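RNA sequencing measured 10 stress and vascular immediate-early genes in the dorsal hippocampus of mice that stayed in the homecage or were trained in object location memory (OLM). The genes were chosen by symbol from the 20953 genes of the expression table, with earlier results of these data known and with no threshold on any value. They are Klf2, Klf4, Klf6, Klf10, Ier2, Ier3, Ier5, Cyr61, Btg2 and Maff, and all 10 were found. Because of that choice, the counts and p-values below describe each gene against the spread between mice and are no evidence about the list.

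The 40 libraries, 1 per mouse, fell into 6 groups. Young wildtype C57BL/6J mice were 2 to 4 months old, 6 of them in the homecage group (YWT-HC) and 6 in the group taken 60 min after a training session (YWT-BV). Old wildtype mice were 18 to 20 months old, again 6 in the homecage (OWT-HC) and 6 trained (OWT-BV). Old HDAC3flox/flox mice of the same age gave 8 homecage (H3F-HC) and 8 trained libraries (H3F-BV). Per the methods of the study, the old mice of both genotypes received a virus with Cre recombinase under the CaMKII promoter, which drives expression in excitatory neurons, so that other cells of the punch keep the gene, and the wildtype littermates carried no floxed allele. The young mice came from an earlier experiment for which no infusion is described. The old mice were of a line that the paper describes as kept on a C57BL/6 background. Both sexes were used per the paper, with unequal shares of females between young, old wildtype and HDAC3flox/flox mice, and the sex of each library is not given here. Age, experiment, line and infusion therefore cannot be told apart in any comparison of old with young mice.

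Immediate-early genes are transcribed within minutes of a stimulus from factors already present in the cell, such as CREB, serum response factor and NF-kB. In neurons they follow synaptic activity, in endothelium they follow blood flow and in immune cells they follow cytokines and tissue damage. The Klf genes encode zinc-finger transcription factors that bind GC-rich promoters, Maff encodes a small Maf factor without an activation domain of its own, and Cyr61 (also named Ccn1) encodes a secreted matrix protein that binds integrins. Btg2 restrains cell division and is a target of p53, Ier3 is a stress-induced regulator of cell survival, Ier5 acts with the heat shock factor HSF1, and Ier2 is a small nuclear protein of the early growth response.

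Values are RPKM, reads scaled to the length of a gene's exons and to the mapped reads of the library. Hdac3 itself, the check of the genotype, was between 11.5 and 24.2 RPKM in the 16 HDAC3flox/flox libraries and between 27.6 and 35.5 in the others. The read depth, estimated from the spacing of the lowest values, ran from 12.7 M to 38.8 M reads. Several libraries stood apart. In the library labelled OWT-HC-110A the 12 lymphocyte markers summed to 1.15 RPKM, whereas the highest sum in the group was 175. Its 15 NF-kB early targets summed to 22.5 RPKM, within the YWT-HC range of 20.2 to 26.9, and its microglia and macrophage markers to 244, nearer to the young maximum of 227 than to its group's median of 1182. Its Ier3, Klf10 and Btg2, at 3.89, 8.71 and 6.64 RPKM, lay above the YWT-HC maxima of 2.71, 7.25 and 6.49. Klf2, Klf4, Klf6, Ier2, Ier5 and Maff of this library lay within the YWT-HC range, and Cyr61, at 1.09, below it. In other values it lay with its group. The 10 oligodendrocyte markers summed to at most 1840 RPKM in OWT-HC, this library included, and to at least 1884 in YWT-HC. For 9.07% of all genes every OWT-HC library, this one included, lay above every YWT-HC library. Whether its label is right was not tested, and results that rest on it are given with and without it. The values of H3F-HC-121B and H3F-BV-108D leaned toward short transcripts, with a correlation of -0.50 and -0.47 between a gene's deviation from its group median and the log of its length. YWT-HC-1931 and YWT-BV-1923 held the highest choroid plexus sums of the young groups, 3762 and 9278 RPKM, beside group medians of 65.0 and 47.0. The YWT-HC mean was 1088 RPKM, too high for YWT-HC-1931 to be the only homecage library with a large sum. Old libraries reached like sums, 8554 in OWT-BV-127C, 6133 in H3F-BV-118D and 4184 in H3F-HC-124B, while no OWT-HC library was above 14.7.

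In the homecage of young mice the most abundant of the 10 genes was Ier5, at 15.2 ± 1.65 RPKM (mean ± SD, n = 6). Klf6 at 6.81 ± 0.45, Klf10 at 6.09 ± 0.91 and Btg2 at 5.72 ± 0.53 RPKM came next, and neighbours in this order lay within their SDs of each other. Below them stood Klf2 at 3.55 ± 0.43, Ier2 at 3.01 ± 0.82, Ier3 at 2.08 ± 0.41, Cyr61 at 1.48 ± 0.30 and Klf4 at 1.33 ± 0.18 RPKM, and each of these overlapped with the next within their SDs. Maff was lowest and apart from Klf4, at 0.31 ± 0.07 RPKM.

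The order was not the same in old wildtype homecage mice. Cyr61 was there at 11.5 ± 7.94 RPKM (n = 6), behind Ier5 at 21.1 ± 2.66 and Klf6 at 13.3 ± 4.53, and within its SD of Klf6, Btg2, Klf10, Ier3, Klf2 and Ier2. Klf4, a factor of endothelial and smooth muscle cells that is also used to induce pluripotency, became the lowest at 1.54 ± 0.31 RPKM, beside Maff at 2.06 ± 1.11. The spread was also unequal. The coefficient of variation of Cyr61 was 20.4% in YWT-HC and 19.4% in YWT-BV, 68.8% in OWT-HC and 57.1% in OWT-BV, and 49.0% in H3F-HC and 105.2% in H3F-BV, while that of Klf10 lay between 4.13% and 15.8% in the 6 groups.

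**Figure D1:**
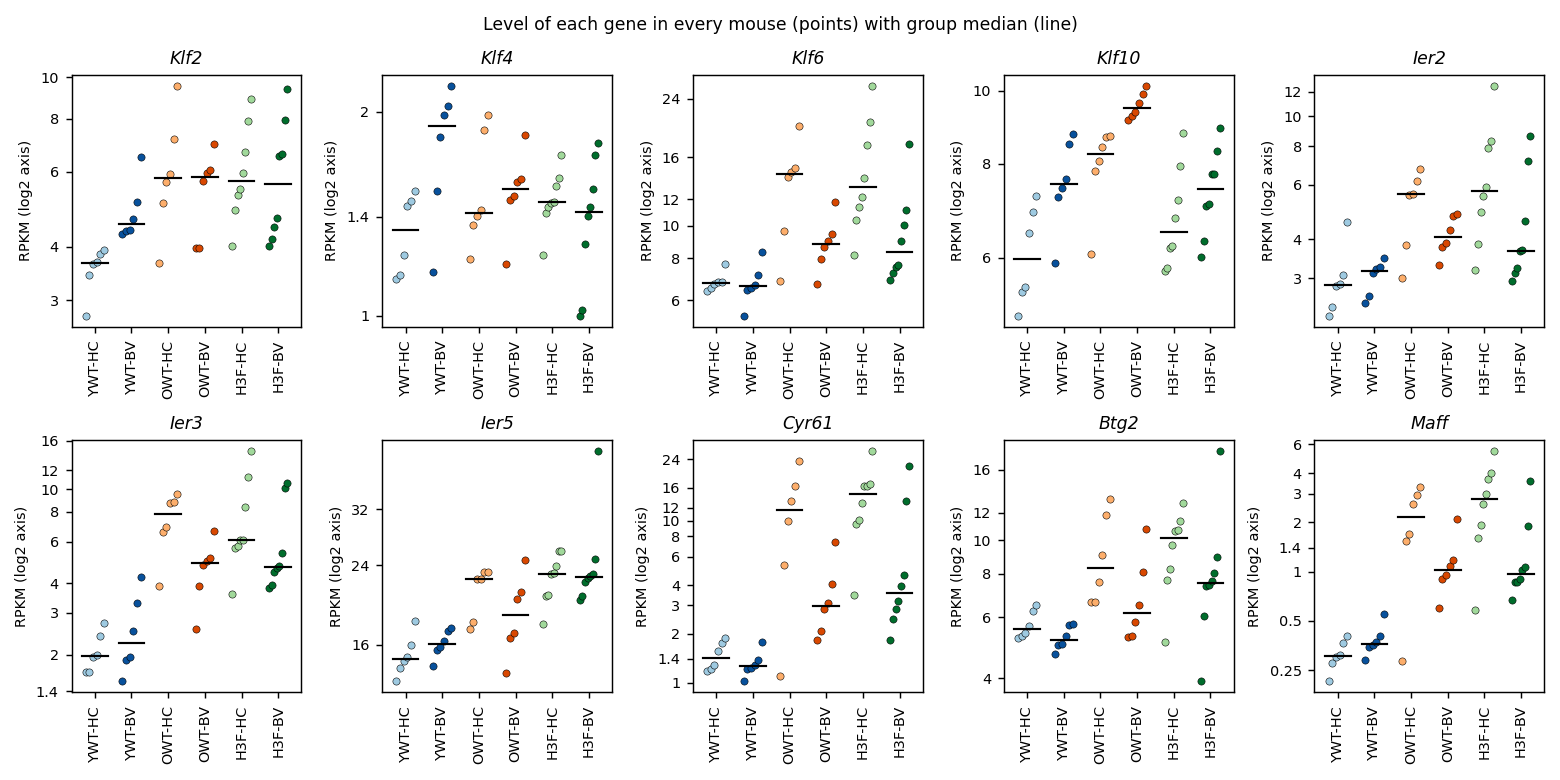
RPKM of each of the 10 genes on a log2 axis in the 6 groups, 1 point per mouse, with a line at the group median. Cyr61 stayed between 1.02 and 1.89 in the 12 young mice and reached 23.3 in OWT-HC and 26.9 in H3F-HC, while Klf4 lay between 1.0 and 2.18 in every group.

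The stretches before the start sites of 3 genes are shown because they hold letters read by regulators of this gene class and because the 3 genes behaved unequally. RefSeq (GRCm38.p6, the mm10 build of the files) gave start sites for 8 of the 10 genes, all but Ier2 and Klf10, and the 250 bases before each start were searched on both strands. Positions are counted back from the start site. The strand read is the gene's own, and capitals mark the motifs found.
Cyr61, chr3:145650005-145650095, minus strand, bases -110 to -20: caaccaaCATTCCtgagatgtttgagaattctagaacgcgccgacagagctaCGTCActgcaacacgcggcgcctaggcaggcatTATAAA
Maff, chr15:79347430-79347499, plus strand, bases -90 to -21 of its start at the second of 3 sites: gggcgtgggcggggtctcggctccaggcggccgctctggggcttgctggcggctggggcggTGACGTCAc
Btg2, chr1:134079246-134079335, minus strand, bases -180 to -91: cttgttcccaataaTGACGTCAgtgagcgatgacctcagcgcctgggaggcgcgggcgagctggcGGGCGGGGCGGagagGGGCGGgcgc
No exon of the GENCODE vM21 annotation overlaps these stretches. The full cAMP response element TGACGTCA was found before Btg2 and Maff, at -166 to -159 and -29 to -22, and before 1.55% of all 32851 start sites. Its core TGACG, which lies within the full element, was found before 5 of the 8 genes (Btg2, Cyr61, Klf2, Klf4 and Maff) and before 17.8% of all start sites. Cyr61 alone of the 8 held TATAAA (12.4% of all start sites) and the TEAD motif GGAATG (12.6%), which is read here on the opposite strand as CATTCC. The GC box GGGCGG, in capitals only for Btg2, was found before all 8 genes and before 32.7% of all start sites. The NF-kB motif was found before Ier3 and another start of Maff (3.90% of start sites). Neither the CArG box of serum response factor (1.47%) nor the AP-1 motif TGANTCA (6.75%) was found before any of the 8. A match of letters is a description and does not show that a factor binds.

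The first comparison asked how training changed these genes in young mice. Comparisons were made with limma on log2(RPKM + 0.5) over the 14173 genes with a mean of at least 0.5 RPKM, and a gene was called at an unadjusted p under 0.05 with a Benjamini-Hochberg adjusted p under 0.15. All 10 genes passed that filter, Maff only through the old mice. None of the 10 was called after training in young mice, against 0.423% of all genes tested. At an unadjusted p under 0.05, 3 of the 10 were higher and 0 lower, against 6.38% and 3.79% of all genes.

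Those 3 were Klf factors. Klf2, the flow-induced factor of endothelium and a keeper of T cell quiescence, ran from 2.76 to 3.94 RPKM in YWT-HC (median 3.67) and from 4.29 to 6.50 in YWT-BV (median 4.52). Every trained young mouse thus lay above every homecage mouse, which held for 1 of the 10 genes and for 0.741% of all genes. The log2 fold change of Klf2 was 0.40 ± 0.10 (SE), with an adjusted p of 0.19 by limma. Klf4 went from 1.13, 1.34 and 1.53 RPKM (lowest, median, highest) to 1.16, 1.91 and 2.18, with 4 of 6 trained mice above the homecage range. Its log2 fold change was 0.31 ± 0.11, with an adjusted p of 0.363 by limma. Klf10, first known as an early gene of TGF-beta, went from 5.02, 5.97 and 7.25 RPKM to 5.90, 7.53 and 8.75. The groups overlapped, and its log2 fold change was 0.29 ± 0.10 (limma, adjusted p = 0.356).

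The other 7 genes showed log2 fold changes between -0.12 (Cyr61) and 0.21 (Ier3) in young mice, with limma adjusted p-values from 0.60 for Btg2 to 0.975 for Ier2. YWT-BV-1923 held the highest Klf2, Klf6, Ier2, Ier3, Cyr61 and Maff of its group, and YWT-HC-1931 the highest Klf2, Klf6, Klf10, Ier2, Ier3, Ier5 and Btg2. Without these 2 libraries, Klf2 (log2 fold change 0.35, adjusted p = 0.0595) and Klf10 (0.35, adjusted p = 0.135) were called, against 3.95% of all genes called higher. This setting was chosen after the data were seen, and it kept another YWT-HC library with a large choroid plexus sum. Without YWT-BV-1923 alone Klf2 was called (3.56% of all genes higher), and without YWT-BV-1935 Klf4 was called (0.353%).

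The 25 neuronal activity genes gave a point of comparison in the same mice. Of these, 9 were called higher and 0 lower, with a median log2 fold change of 0.37, beside 0.10 over the 10 genes and 0.01 over all genes tested. The largest was Egr2, an activity-induced zinc-finger factor, at 1.16. Among 14 tested endothelial genes listed as induced with Klf2 and Klf4, 0 were called higher and 1 lower, and their median was -0.01. The gene called lower, against the direction of the list, was Edn1, the vasoconstrictor peptide endothelin, at -0.35 (limma, adjusted p = 0.138). Klf2 is known to repress Edn1, so its place among induced genes is uncertain and no reading is drawn from its direction. The median over 14 endothelial markers was -0.00, and 0 of them were called.

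**Figure D2:**
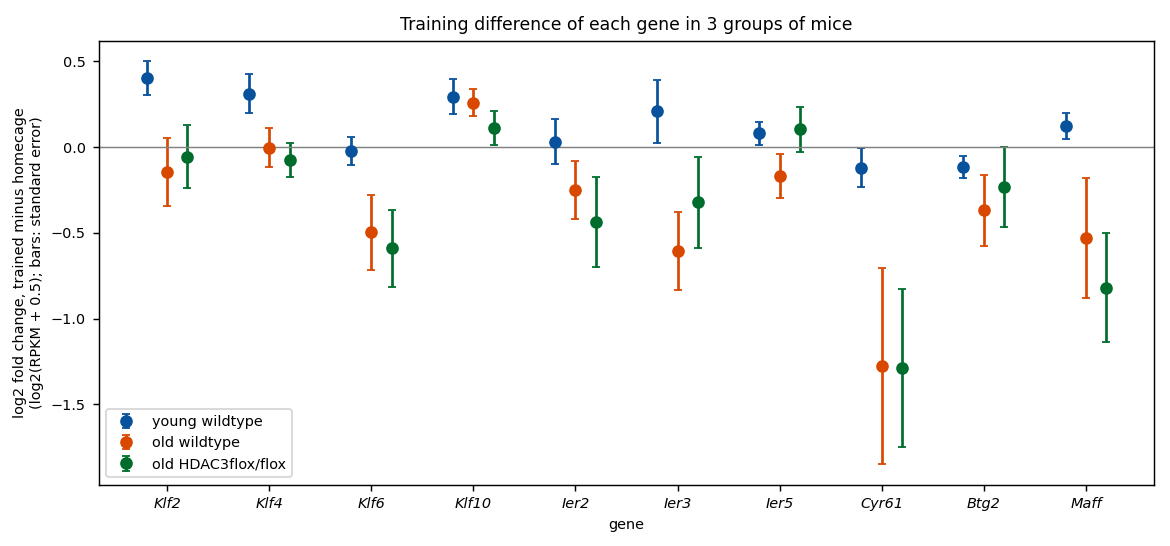
Log2 fold change of each of the 10 genes from homecage to trained mice on the log2(RPKM + 0.5) scale, with bars of 1 standard error, in young wildtype, old wildtype and old HDAC3flox/flox mice. Klf2 lies at 0.40 in young mice and at -0.14 and -0.06 in the old groups, and Cyr61 lies at -0.12 in young mice and at -1.28 and -1.29 in the old groups.

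In old wildtype mice 0 of the 10 genes and 0% of all genes were called after training. With an unadjusted p below 0.05 as the only criterion, 1 of the 10 was higher and 3 were lower, against 3.55% and 4.39% of all genes. Klf10 was the gene that was higher. It ran from 6.08 to 8.71 RPKM in OWT-HC (median 8.24) and from 9.14 to 10.1 in OWT-BV (median 9.50). The groups did not overlap, as for 0.176% of all genes, and the log2 fold change was 0.26 ± 0.08 (limma, adjusted p = 0.53).

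Cyr61, Klf6 and Ier3 were the genes with lower values. Cyr61 stood in OWT-HC at 1.09, 5.32, 9.93, 13.3, 16.3 and 23.3 RPKM, and in OWT-BV at 1.83, 2.10, 2.86, 3.08, 4.07 and 7.35. The single homecage value below all trained mice was that of the library labelled OWT-HC-110A, and 4 of the other 5 lay above all of them. The log2 fold change was -1.28 ± 0.57 with all libraries (limma, adjusted p = 0.53). Klf6, a factor induced by tissue injury, went from 6.85, 14.3 and 19.9 RPKM (lowest, median, highest) to 6.68, 8.82 and 11.8, a log2 fold change of -0.50 ± 0.22 (limma, adjusted p = 0.53). Ier3 went from 3.89, 7.81 and 9.50 RPKM to 2.57, 4.88 and 6.67, a log2 fold change of -0.61 ± 0.23 (limma, adjusted p = 0.53). Both pairs of ranges overlapped. Of the marker lists, 0 of 11 tested microglia and macrophage markers (median -0.25) and 0 of 12 lymphocyte markers (median -0.99) were lower at an unadjusted p under 0.05, and 3 of 10 choroid plexus markers were higher (median 1.62). Their part in these values was not tested.

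The library labelled OWT-HC-110A decided how many genes were called here. It held the lowest Klf2, Klf6, Ier2, Ier3, Cyr61, Btg2 and Maff of its group, and the highest Klf10. Without it 6 of the 10 were called by limma, Klf10 higher (2.94% of all genes were higher) and Klf6, Ier2, Ier3, Cyr61 and Maff lower (10.1% lower). Cyr61 was then at -1.78 (adjusted p = 0.114). Without both that library and OWT-BV-109C, which leaned toward short transcripts, 0 were called and Cyr61 was at -1.77. The second setting was also chosen after the data were seen.

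In old HDAC3flox/flox mice 0 of the 10 genes were called after training, as were 0% of all genes. By the unadjusted p alone, under 0.05, no gene of the 10 was higher and 3 were lower, against 4.61% and 12.5% of all genes, so that lower values were common in this comparison. Cyr61 ran from 3.48 to 26.9 RPKM in H3F-HC (median 14.7) and from 1.82 to 21.9 in H3F-BV (median 3.59). Of the 8 trained mice, 6 lay between 1.82 and 4.63 and the others, H3F-BV-108D and H3F-BV-113D, at 13.3 and 21.9. The log2 fold change was -1.29 ± 0.46 (limma, adjusted p = 0.24).

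Maff, whose product pairs with NRF2-type factors, ran from 0.58 to 5.44 RPKM in H3F-HC (median 2.78) and from 0.67 to 3.57 in H3F-BV (median 0.96). Its log2 fold change was -0.82 ± 0.32 (limma, adjusted p = 0.24). Klf6 ran from 8.19 to 26.2 RPKM before and from 6.88 to 17.5 after training, a log2 fold change of -0.59 ± 0.23 (limma, adjusted p = 0.24). For all 3 genes the ranges overlapped, with H3F-HC-112B as the lowest homecage mouse and H3F-BV-113D as the highest trained mouse. Without H3F-HC-112B the 3 genes were called lower (11.8% of all genes), as they were without H3F-BV-113D (15.4%) and in a model of all 40 libraries (16.1%). Klf2 and Klf4 were at -0.06 ± 0.18 and -0.08 ± 0.10, and Klf10 was at 0.11 ± 0.10 with overlapping ranges. Ier5 was at 0.10 ± 0.13 and held its highest value, 43.0 RPKM, in H3F-BV-108D. Without that library and H3F-HC-121B, a setting chosen after the data were seen, 0 of the 10 were called.

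The next question was whether the training differences themselves differed between groups. Between old HDAC3flox/flox and old wildtype mice 0 of the 10 were called, as were 0% of all genes. The difference for Cyr61 was -0.01 ± 0.76 on the log2 scale, and for Klf10 it was -0.15 ± 0.13. Between old and young wildtype mice 0 of the 10 and 0% of all genes were called. At an unadjusted p under 0.05, 2 of the 10 were lower in the old mice, against 6.72% of all genes. Ier3 differed by -0.81 ± 0.31 (limma, adjusted p = 0.496) and Klf2 by -0.55 ± 0.23 (limma, adjusted p = 0.496). Without OWT-HC-110A, Klf2, Klf6, Ier3, Cyr61 and Maff were called lower, against 13.9% of all genes. That the young Klf2 difference is absent from old mice is thus not shown with all libraries.

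In the homecage the old wildtype mice differed from the young in 9 of the 10 genes, all called higher, against 32.1% of all genes called higher. The largest log2 fold change was that of Cyr61, at 2.20 ± 0.53 (limma, adjusted p = 0.00764). The 12 young mice of both groups lay between 1.02 and 1.89 RPKM, 5 of the 6 old homecage mice lay at 5.32 or above, and the library labelled OWT-HC-110A, at 1.09, lay within the young range. Without that library Cyr61 was at 2.70 (limma, adjusted p = 2.91e-05), and the log2 fold changes of the other genes kept their sign. Ier3 followed at 1.58 ± 0.18 (adjusted p = 0.000487), from 1.69 to 2.71 RPKM in young and from 3.89 to 9.50 in old mice. Ier3 and Btg2 were the genes whose groups did not overlap, as for 9.07% of all genes.

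Maff was at 1.50 ± 0.32 (limma, adjusted p = 0.00461), and since its young values, 0.21 to 0.40 RPKM, lie below the filter, it could enter the test only by being higher in old mice. The pseudocount of 0.5 also holds its fold change down, and the ratio of its mean RPKM was 6.60. Klf6 was at 0.84, Ier2 at 0.68, Klf2 at 0.67, Btg2 at 0.59, Ier5 at 0.45 and Klf10 at 0.36. Klf4 was the gene not called, at 0.15 ± 0.11 (adjusted p = 0.267). Quantile scaling lowered the median of all genes by 0.148 in this comparison, and Klf10 was then no longer called, at 0.19.

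Relatives of these genes were read beside them in the same comparison, in which 32.1% of all genes were called higher and 17.7% lower. Of 10 tested other KLF factors, 2 were called higher (Klf3 and Klf13) and 2 lower (Klf5 and Klf8), with a median of -0.02. Of 12 tested relatives of the remaining genes, 8 were higher and 1 lower, with a median of 0.65. Among them was Wisp2, which belongs to the CCN family of Cyr61, at 1.91. Nov, another CCN gene, was the one called lower, at -1.95. Of the 13 tested NF-kB early targets 13 were higher (median 1.94), a count that the filter helped to make. Cxcl1 and Cxcl2 of that list were too low to test. Tnf, at 0.01 RPKM in YWT-HC and 2.25 in OWT-HC, could enter the test only by being higher in old mice. Of 15 p53 and growth arrest targets 11 were higher and 1 lower (median 0.67). SRF and YAP target genes, the class to which Cyr61 belongs, went both ways, with 5 higher and 4 lower of 14 tested.

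Between HDAC3flox/flox and wildtype mice of old age in the homecage, 0 of the 10 genes were called, against 0.127% of all genes. Log2 differences lay between -0.21 ± 0.11 for Klf10 and 0.52 ± 0.55 for Cyr61. After training, Klf10 ran from 6.01 to 8.93 RPKM in H3F-BV and from 9.14 to 10.1 in OWT-BV. These ranges did not meet, which held for 1 of the 10 genes in this direction and for 0.325% of all genes, and no model was fitted to this pair. Trained old wildtype mice lay wholly above trained young mice in Klf10, Cyr61 and Maff, as for 7.42% of all genes.

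The 10 genes varied together to unequal degrees within groups. With the group means removed, Pearson's r over the 40 libraries had a median of 0.52 over the 45 pairs and ran from -0.22 to 0.93, and 24 pairs were over 0.5. The highest values were 0.93 for Cyr61 with Maff, 0.89 for Klf6 with Maff and 0.85 for Cyr61 with Klf6. In the 12 young mice alone these were 0.35, 0.74 and 0.51, and the highest there were 0.89 for Klf6 with Ier3 and 0.85 for Ier2 with Ier5. Klf10 had r from -0.22 to 0.20 with the other 9 over the 40 libraries. In the 12 young mice its r was 0.74 with Ier2, 0.60 with Ier5, 0.52 with Btg2 and 0.45 with Klf2. These correlations share libraries, depth and tissue composition and are given as a description.

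**Figure D3:**
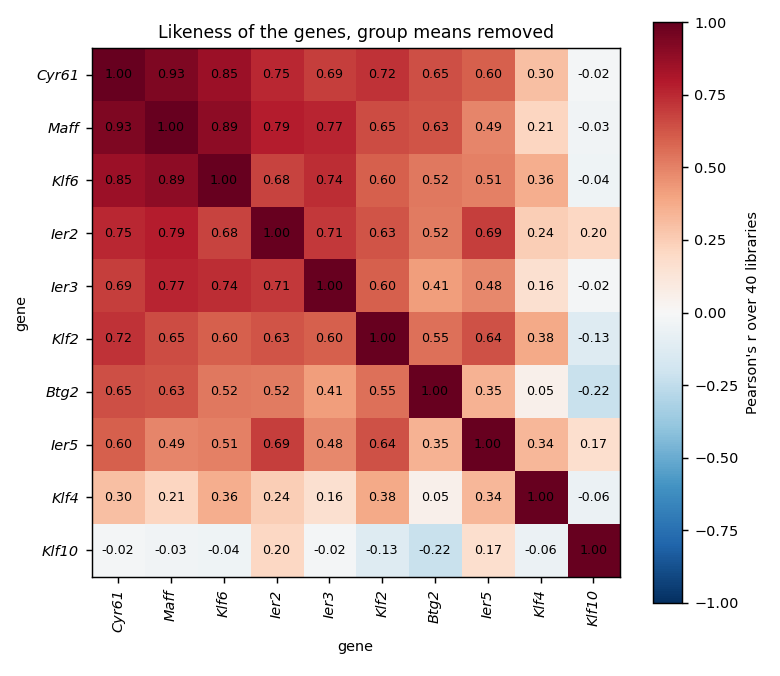
Pearson's r between each pair of the 10 genes over 40 libraries, from log2(RPKM + 0.5) with group means removed, coloured from -1 to 1. Cyr61, Maff and Klf6 form a block with r of 0.85 to 0.93, and Klf10 lies between -0.22 and 0.20 with every other gene. The 12 young mice are not drawn apart, and only some of these values hold within them. There Cyr61 with Maff was at 0.35 and Klf10 with Ier2 at 0.74, while Klf6 with Maff was at 0.74 and Klf10 with Klf6 at 0.17.

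Among 13026 other genes with a mean of at least 1 RPKM, those most like Cyr61 were Cxcl16, Glipr2, Cnn3, Fxyd5 and Zfp36, with r from 0.95 to 0.96 over the 40 libraries. Cxcl16 is a chemokine of myeloid cells and Zfp36 an RNA-binding brake on cytokine messages. Those most like Maff were Tnfaip2, Ccrl2, Triobp, Irg1 and Tnf, at 0.95 to 0.96, of which Irg1 and Tnf are products of activated macrophages. For Klf6 they were Tor1aip1, Jak2, Fam46a, Plekhf2 and Msn, at 0.94 to 0.95. Klf2 was most like Sdc4, Endou, Odc1, Ifitm2 and Slc39a1, at 0.82 to 0.85, and Ier2 most like Crip1, Anp32b, Msrb1, Arhgdia and Plekho1, at 0.90 to 0.91. Ier3 was nearest to Tspan4, Cp, G6pdx, Mgst1 and Snx6 (0.81 to 0.83), Ier5 to Crip2, Snw1, Ier5l, Ptp4a3 and Ei24 (0.81 to 0.88) and Btg2 to Il27ra, Exoc3l4, Nek6, Arhgap17 and Smarcd2 (0.85 to 0.89). The nearest gene to Klf10 was Arc, the synaptic activity gene, at 0.62, followed by Zfp772, Rara, Mchr1 and Rabif at 0.56 to 0.58. Klf4 was nearest to Oplah at 0.65, with Gtf2a1, Gas1, Rxra and Tgoln1 at 0.60 to 0.62. For the mean of the 10 genes the nearest were Fxyd5, Tagln2, Mcl1, Mapkapk2 and Cnn3, at 0.96 to 0.98.

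Markers of several other cell types in the punch moved with the same libraries, in either direction. The 12 microglia and macrophage markers, none at 0 in any library, summed to between 189 and 227 RPKM in the young mice of both groups. Their sums ran from 244 to 1468 in OWT-HC, 471 to 995 in OWT-BV, 486 to 1949 in H3F-HC and 319 to 1599 in H3F-BV, with medians of 1182, 587, 1280 and 490.0. With group means removed, r between that sum and Cyr61 was 0.92 over 40 libraries (Spearman's rho 0.80) and 0.86 without the 2 libraries farthest out, OWT-HC-110A and H3F-BV-113D. In the 12 young mice it was -0.32. The same r over 40 libraries was 0.91 for Maff, 0.82 for Klf6, 0.64 for Klf2, 0.24 for Klf4 and -0.00 for Klf10. In the 12 young mice it was -0.16, -0.27, 0.01, 0.01 and -0.20, in the same order. The sum of 16 pyramidal and granule cell markers went the other way for most of these genes. Over 40 libraries its r was -0.72 with Cyr61, -0.74 with Maff, -0.81 with Klf6, -0.51 with Klf2, -0.34 with Klf4 and 0.21 with Klf10. In the 12 young mice these were -0.68, -0.61, -0.83, -0.53, -0.41 and 0.02.

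The 12 lymphocyte markers, 10 of which were at 0 in at least 1 library, summed to at most 1.51 RPKM in young mice and at most 175 in OWT-HC. Their r with Cyr61 was 0.92 over 40 libraries and 0.48 in the 12 young mice. The 14 endothelial markers, none at 0, summed to medians of 124.6 and 129.5 RPKM in YWT-HC and YWT-BV and of 161, 143, 157 and 149 in OWT-HC, OWT-BV, H3F-HC and H3F-BV. Their r was 0.77 with Cyr61 and 0.78 with Klf2 over 40 libraries, and 0.83 and 0.79 in the 12 young mice. The young values were not particular to endothelial markers. For choroid plexus markers they were 0.82 and 0.76, and for meningeal and perivascular fibroblast markers 0.80 and 0.75. Over 40 libraries these 2 lists had r of -0.01 and 0.07, and of 0.49 and 0.59. Between old and young wildtype homecage mice, 10 of 11 tested microglia markers and 12 of 12 lymphocyte markers were called higher (medians 1.51 and 2.39). Of all genes 32.1% were called higher. Since the lymphocyte markers summed to at most 1.51 RPKM in young mice, most could enter the test only by being higher in old mice. Of 10 choroid plexus markers, 6 were called lower (median -1.63), against 17.7% of all genes. For training in HDAC3flox/flox mice, 10 of 11 tested microglia markers and 11 of 12 lymphocyte markers were lower at an unadjusted p under 0.05 (medians -0.77 and -1.44). By this rule 12.5% of all genes were lower, and 0 of 14 endothelial markers were (median -0.04). In bulk tissue, fewer cells of a type and less RNA per cell cannot be told apart, and the part of these cells in the values of the 10 genes was not tested. The sum of the neuronal activity genes had an r of 0.56 with Klf10 and 0.31 with Cyr61 over 40 libraries, and of 0.69 and -0.05 in the 12 young mice.

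**Figure D4:**
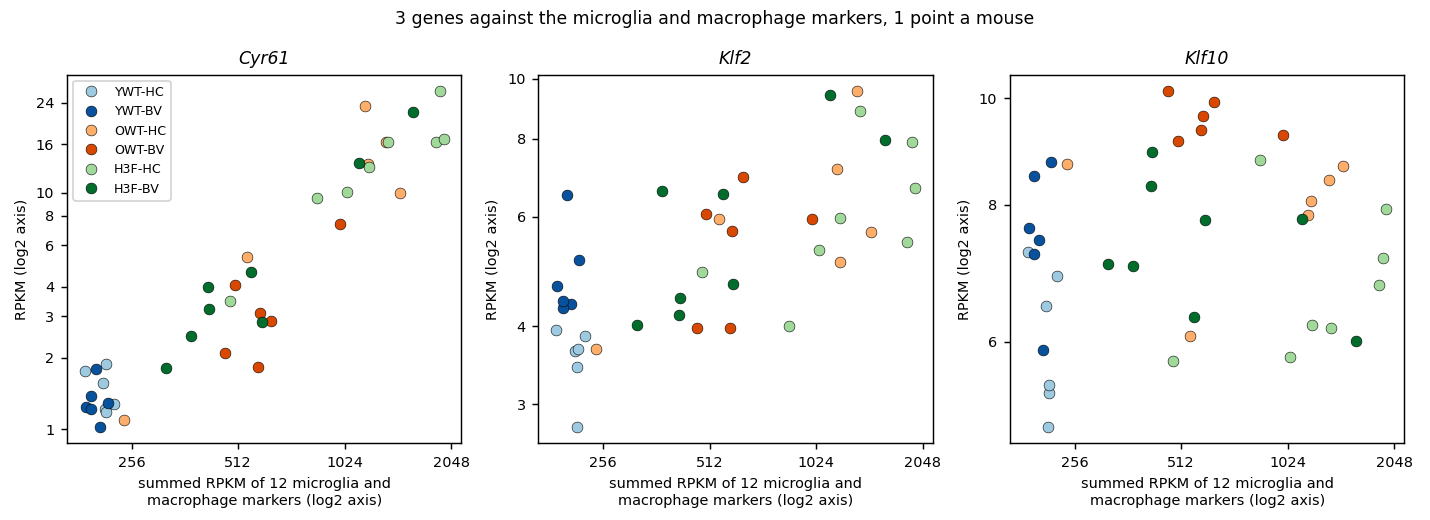
RPKM of Cyr61, Klf2 and Klf10 against the summed RPKM of 12 microglia and macrophage markers, both on log2 axes, 1 point per mouse coloured by group. Cyr61 and the marker sum are both low in the 12 young mice and in OWT-HC-110A and high in most old homecage mice, and Klf10 shows no such slope (r -0.00 with group means removed).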

How the data were processed

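Single reads of 50 bases were filtered with CASAVA 1.8.2 and aligned to mm10 by the authors, who computed RPKM per gene. The deposited RPKM values of 20953 genes in 40 libraries were used as given. A deposited table of the authors' own comparisons, which holds fold changes and p-values, was not used. The RPKM values hold no read totals, so depth was estimated from the spacing of the 80 lowest values of short RNA genes, taking 1 step as 1 base of a read.

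Each comparison was fitted on the libraries of its own groups with limma 3.58.1 in R 4.3.3 (empirical Bayes with trend) on log2(RPKM + 0.5) for 14173 genes, with Benjamini-Hochberg adjustment over all of them. Sex and batch were not covariates. The fit was tested on simulated data. The 10 genes and all gene lists were chosen with earlier results of these data known. The 5 nearest genes were named by the highest r, and genes of lists when called. Alternatives were other pseudocounts, filters, scalings, thresholds, a model of all 40 libraries, library weights, a regularized test on RPKM and leaving out each library.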

Additional observations from a re-analysis of the deposited data

Results flagged for a closer look

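Over 60 combinations of a gene and a group, 3 libraries lay far from the rest of their group on the log2 scale by Dixon's criterion, which chance alone meets in about 1 of 20 groups, so that a count of this size is unremarkable. Klf6 in YWT-HC-1931 was at 7.67 RPKM, above 6.39 to 6.81 in the other mice. Klf10 in OWT-HC-126A was at 6.08 RPKM, below 7.83 to 8.71. Ier5 in H3F-BV-108D was at 43.0 RPKM, above 20.2 to 24.8, and this library leaned toward short transcripts.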

How the results depend on the processing

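No direction of a called value was reversed by any alternative that was run. The regularized test on RPKM called 0 of the 10 genes in each of the 3 training comparisons. With weights for libraries, the number of the 10 genes called was 2 for training in young mice, 6 in old wildtype, 7 in old HDAC3flox/flox, 7 for the old minus young training difference and 1 for genotype in the homecage. The shares of all genes called by the regularized test and with these weights are not given, so these counts cannot be set against them. A model of all 40 libraries called 3 in old HDAC3flox/flox training, where it called 16.1% of all genes lower. Leaving out 1 library gave from 0 to 1 calls in young training, 0 to 6 in old wildtype training, 0 to 3 in old HDAC3flox/flox training and 0 to 5 for the old minus young training difference. The calls over all genes rose as well. Without OWT-HC-110A, 10.1% of all genes were called lower in old wildtype training and 13.9% for the old minus young difference. In old HDAC3flox/flox training 11.8% were called lower without H3F-HC-112B and 15.4% without H3F-BV-113D. Of the settings chosen after seeing the data, leaving out YWT-HC-1931 and YWT-BV-1923 called 2 in young training, against 3.95% of all genes called higher. Leaving out OWT-HC-110A and OWT-BV-109C called 6 for the old minus young difference, for which the share of all genes is not given. The cause was not tested. No paired analysis was possible because the mouse numbers are not shared between groups.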
